A study of Mus musculus with 4 samples.

Results

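Transcripts of the Rab GTPases were compared between RNA precipitated with a KIF5C antibody and RNA precipitated with IgG from mouse hippocampus. The members are the 59 genes, of 37411 in the count table, whose symbol is Rab followed by a number with at most 1 letter and 1 further digit. Of these, 54 had enough reads to be tested. KIF5C is a heavy chain of kinesin-1, a motor that carries cargo along microtubules, and the study addressed the RNAs that come down with it. The tested samples were 2 libraries of RNA co-immunoprecipitated with an antibody labelled as a kinesin antibody (KIF5C samples), and their reference was 2 libraries made with a mouse IgG (IgG samples). Both came from the hippocampi of adult mice aged 7 to 9 weeks, with no genotype, strain or treatment given. Each precipitation used the hippocampi of 2 mice, and 6 precipitations were pooled into 2 samples. Whether the 6 were counted per antibody is not stated, nor that the 2 libraries of an antibody hold separate animals, so the p-values speak of the spread among these samples alone, and that spread may be technical. No library of the lysate before precipitation was analysed here, so a higher value means more of an RNA relative to the IgG precipitate.

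Rab proteins are small GTPases that mark the membranes of the secretory and endocytic pathways. Loaded with GTP by exchange factors (GEFs), a Rab sits on its membrane and recruits effectors such as tethers and motor adaptors. GTPase-activating proteins (GAPs) switch it off, and the GDP dissociation inhibitor takes it back to the cytosol. In neurons, Rab3 proteins act on synaptic vesicles, while Rab4, Rab5, Rab7 and Rab11 direct receptors through early, recycling and late endosomes. The proteins of this family travel on motors as parts of vesicles. The measurements here are of their mRNAs, not of those vesicles.

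The KIF5C samples held 15172432 and 14623843 counts, and the IgG samples held 12543510 and 11059266. Rab genes took 0.410% and 0.286% of all counts in KIF5C samples 1 and 2, against 0.415% and 0.258% in IgG samples 1 and 2. The libraries numbered 2 stood apart for both antibodies, since the mitochondrial 16S rRNA mt-Rnr2 took 11.3% and 31.9% of counts in KIF5C samples 1 and 2, against 7.36% and 32.2% in IgG samples 1 and 2. Values below are therefore CPM, counts relative to library size after TMM, a scaling that sets the bulk of the genes level between libraries. On this scale the summed Rab level was 3210 and 3252 CPM in the KIF5C samples, against 3331 and 3630 CPM in the IgG samples. All 35 marker genes of hippocampal cell types were detected. No marker of another brain region was examined, so their detection does not set the hippocampus apart. Summed markers of excitatory neurons were at 2084 and 2098 CPM in the KIF5C samples, against 1784 and 1548 CPM in the IgG samples. Of these 5 genes none passed the test described below, 4 had positive log2 fold changes and Neurod6 a negative one (-0.21). Interneuron markers summed to 382 and 374 CPM with KIF5C and 348 and 334 CPM with IgG. Endothelial markers were at 55.4 and 55.1 CPM with KIF5C and 61.8 and 57.9 CPM with IgG. Astrocyte markers (923 and 807 with KIF5C, 967 and 730 with IgG) overlapped between antibodies. So did microglia markers (170 and 162 with KIF5C, 184 and 137 with IgG). Summed markers of choroid plexus and ependyma were at 171 and 135 CPM in the KIF5C samples, against 441 and 242 CPM in the IgG samples. Most of that sum was Ttr, the choroid plexus transthyretin, and the other 3 markers summed to 35.1 and 35.8 CPM in the KIF5C samples, against 40.8 and 28.4 CPM in the IgG samples. Summed oligodendrocyte markers were at 1661 and 1764 CPM in the KIF5C samples, against 1947 and 1915 CPM in the IgG samples, and Ttr (-1.38, adjusted p = 0.0166) and Mog (-0.82, adjusted p = 0.0380) were lower. Their part in the Rab results was not tested. In such precipitates, fewer cells of a type, less RNA per cell and less RNA brought down cannot be told apart.

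Levels between genes were set beside each other as CPM per kilobase of the longest annotated transcript (CPM per kb). Rab3a, the main Rab of synaptic vesicles, had the highest level, at 202 CPM per kb in the KIF5C samples and 183 in the IgG samples (means, n = 2 each). The Golgi Rabs came next. Rab6b was at 91.5 CPM per kb in the KIF5C samples and 72.2 in the IgG samples, and its paralog Rab6a was at 89.8 in the KIF5C samples and 113 in the IgG samples. Rab1b, which acts between the endoplasmic reticulum and the Golgi, followed at 55.7 CPM per kb in the KIF5C samples and 68.6 in the IgG samples. Rab5c of the early endosome, Rab15 of the recycling route, Rab2a of the early secretory pathway and Rab31 of the route between Golgi and endosomes completed the highest 8. Their means lay between 31.7 and 59.1 CPM per kb in either antibody. At the other end, 42 of the 59 genes were under 20 CPM per kb with both antibodies. These levels depend on the transcript chosen, and with the median transcript length Rab14, Rab11a and Rab3c took the places of Rab5c, Rab2a and Rab31.

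**Figure D1:**
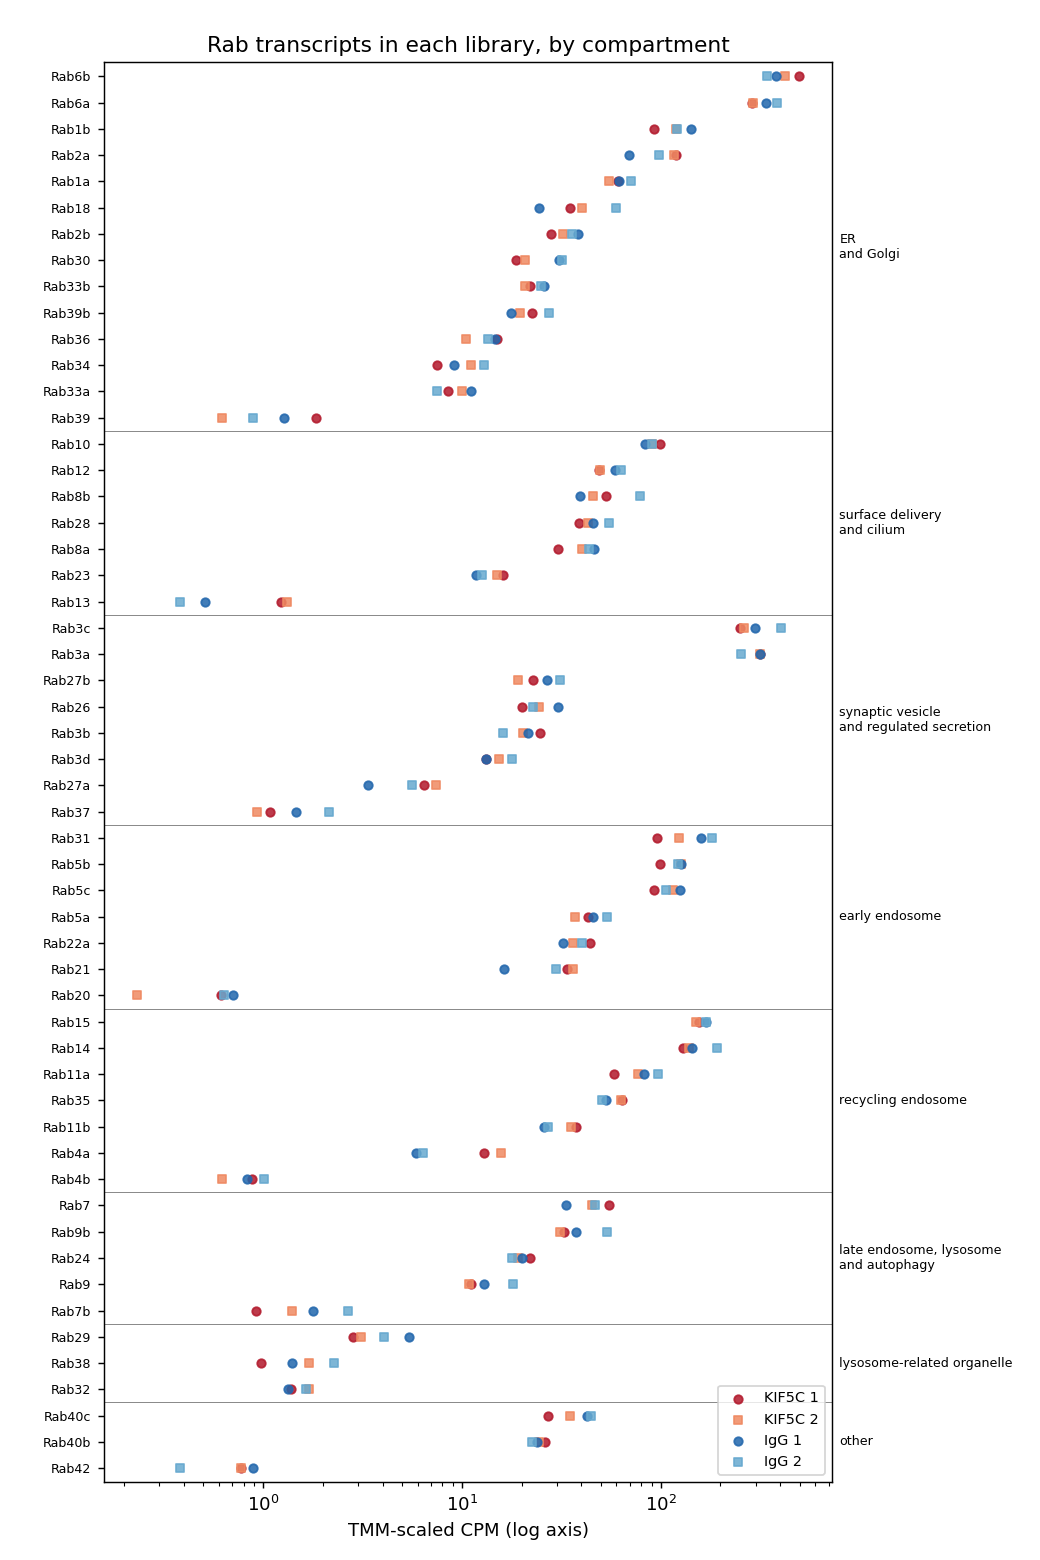
TMM-scaled CPM on a log axis for the 54 tested Rab genes, grouped by compartment, with 1 point per library (red and orange for the KIF5C samples, blue and light blue for the IgG samples). For most genes the 4 points lie close together, while the 2 KIF5C points of Rab4a, at 13.0 and 15.8 CPM, stand apart from the 2 IgG points at 5.89 and 6.36 CPM.

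Rab4a was the 1 Rab transcript that passed the test between the precipitates, and it was higher with the KIF5C antibody. The other 53 tested Rab genes did not pass the test, 0 passed in the lower direction, and 52 of the 54 lay within 2-fold either way. The test was edgeR's quasi-likelihood F test over 14357 genes with Benjamini-Hochberg adjustment at 0.05, and it called 4.07% of all genes tested (3.33% higher and 0.745% lower). The 1 of 54 is 1.85%, so the Rab family was called no more often than the background. At an unadjusted p under 0.05, 5 Rab genes were higher (9.26%, against 12.4% of all genes tested) and 5 lower (9.26%, against 9.06%). With DESeq2, which called 5.42% of all genes, 1 Rab gene passed as well, again Rab4a.

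The median log2 fold difference of the tested Rab genes, KIF5C over IgG, was -0.18, against -0.03 for all genes tested. A positive value was seen in 19 Rab genes (35.2%, against 47.6% of all genes) and a negative value in 35. Both KIF5C samples lay above both IgG samples for 10 Rab genes (18.5%, against 26.3% of all genes), and both lay below for 23 (42.6%, against 26.2%). The libraries overlapped for the remaining 21. Each pair of a KIF5C with an IgG sample gave a negative Rab median, from -0.11 to -0.23. Scaling by library totals moved the median of all genes by 0.14, and relative to that median the Rab genes were at -0.15 with TMM and -0.13 with library totals. With GC and length offsets, which correct for the dependence on both, the Rab median was -0.16, against -0.03 for all genes. In that fit 26 Rab values were positive and 28 negative, against 19 and 35 without offsets. The excess of negative values was thus small in that fit, while the median stayed below that of all genes. These are descriptions of the family, with no test over its members.

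**Figure D2:**
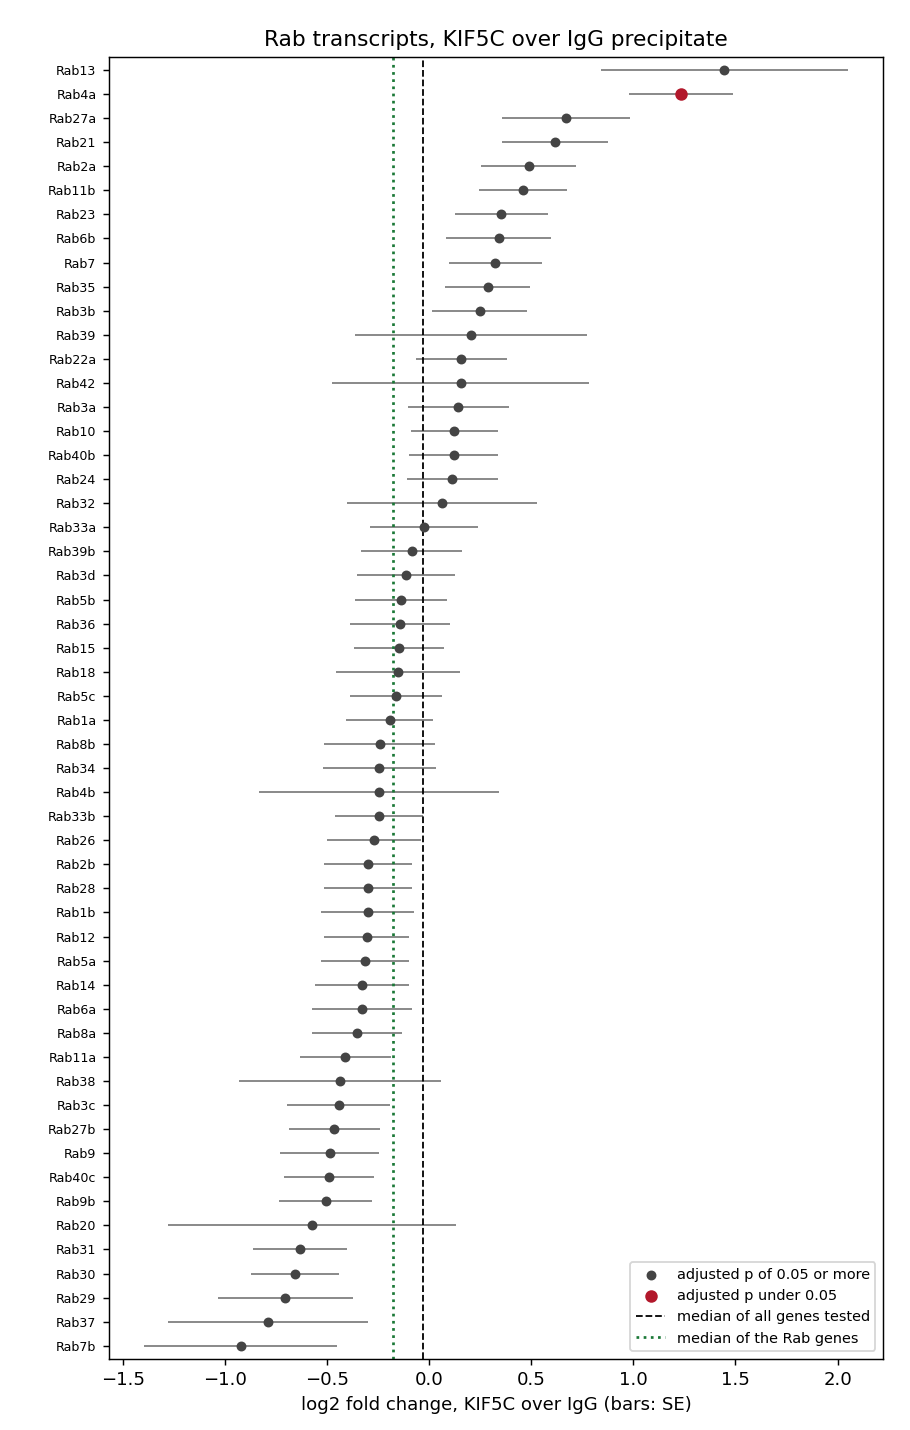
Log2 fold change of the 54 tested Rab genes, KIF5C over IgG, with bars of 1 SE, ordered from highest to lowest. The red point marks Rab4a at 1.23, the 1 gene past an adjusted p of 0.05, and the vertical lines mark the medians of the Rab genes (-0.18) and of all genes tested (-0.03).

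Rab4a encodes the Rab of the fast recycling route, which returns receptors from early endosomes to the cell surface. Its gene lies on the plus strand of chromosome 8, from 123805985 to 123835287 (GRCm38). It had 252 and 203 counts in the KIF5C samples, against 92 and 50 counts in the IgG samples. As CPM this was 13.0 and 15.8 in the KIF5C samples, against 5.89 and 6.36 in the IgG samples. Both KIF5C samples were above both IgG samples, and the gap between antibodies was wider than that between libraries of either antibody. The log2 fold change was 1.23 (SE 0.25, adjusted p = 0.0150), a 2.35-fold higher level. Within the Rab family, a measure that needs no scaling, Rab4a took 0.405% and 0.485% of Rab counts in the KIF5C samples, against 0.177% and 0.175% in the IgG samples.

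The call for Rab4a rested in part on KIF5C sample 2. Without that library the log2 fold change was 1.11 with an adjusted p of 0.0762, while the 3 fits that left out another library kept it past the threshold, with values from 1.17 to 1.38 and adjusted p-values from 0.0159 to 0.0417. With library totals in place of TMM the value was 1.36 (adjusted p = 1.00), in a fit that called 5 genes in all (1 higher and 4 lower, against 478 and 107 with TMM). In the authors' deposited table Rab4a was also the 1 Rab gene past an adjusted p of 0.05. Its log2 value there was -1.0 (SE 0.27, adjusted p = 0.00743), in a column that runs as IgG over KIF5C, so that negative means higher in the KIF5C precipitate.

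**Figure D3:**
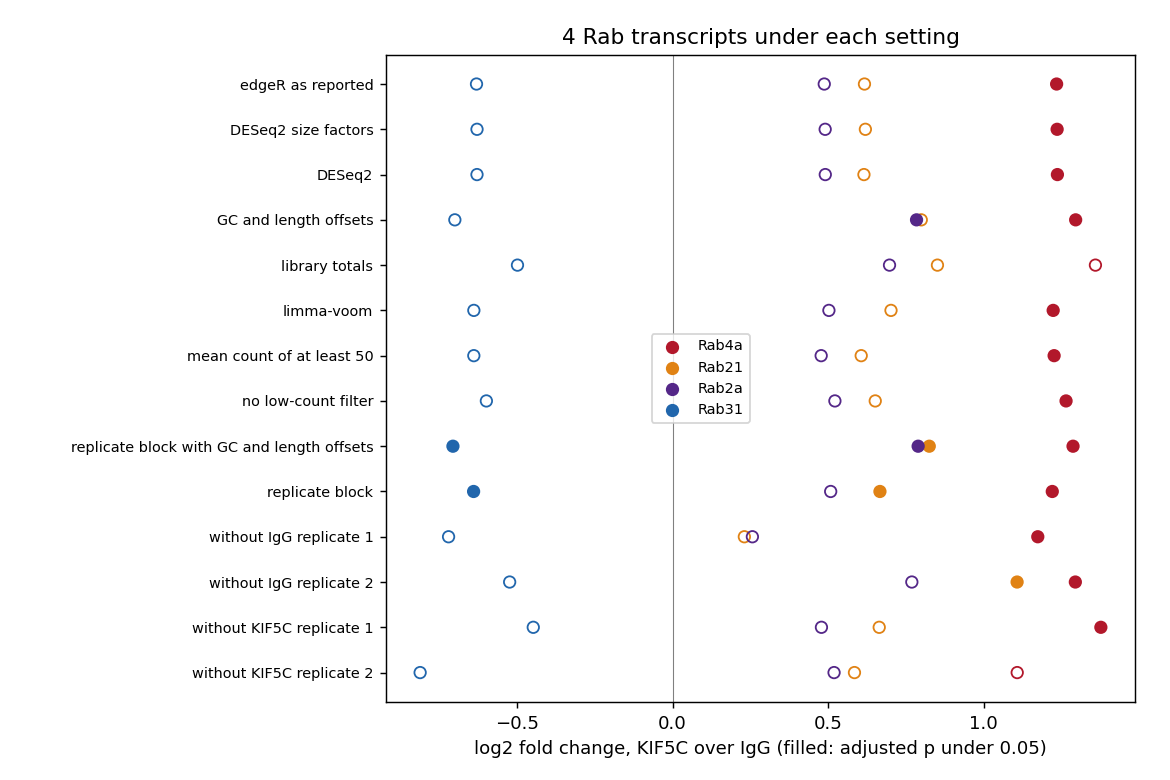
Log2 fold change, KIF5C over IgG, of Rab4a, Rab21, Rab2a and Rab31 under each processing setting, with filled points where the adjusted p was under 0.05. Rab4a lies between 1.11 and 1.38 throughout and is open with library totals and without KIF5C replicate 2, while Rab21 lies between 0.23 and 1.11.

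Salmon, named in the submitters' processing notes, shares reads between similar transcripts, so the likeness of Rab4a to other genes bears on its count. Of the 1752 different 31-base words in annotated Rab4a transcripts, 2 also stand in another gene, 0.114%. Rab4b, its closest relative by name, shares 62.7% of its words with other genes, most of them with a locus named Gm21983 whose exons overlap its own on the same strand. Rab4b was low, at 0.877 and 0.622 CPM in the KIF5C samples and 0.832 and 1.02 CPM in the IgG samples, and these groups overlap. The coding bases around the nucleotide-binding loop (P-loop), a stretch that Rab proteins have in common, are shown for both genes to let the reader see how far the mRNAs differ in that stretch. They cover coding bases 28 to 117 of Rab4a and 13 to 102 of Rab4b, read 5′ to 3′ from GENCODE release 21 (GRCm38), and the 20 of 90 bases that differ between the pair are in capitals.
Rab4a: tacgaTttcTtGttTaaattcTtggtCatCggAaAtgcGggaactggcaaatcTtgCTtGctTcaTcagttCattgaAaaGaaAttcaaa
Rab4b: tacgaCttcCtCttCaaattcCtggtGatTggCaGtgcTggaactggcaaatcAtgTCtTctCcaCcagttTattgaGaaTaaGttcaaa

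Among the Rabs of recycling endosomes, of which 7 of 9 were tested, no gene besides Rab4a passed. Rab11b, which acts in slow recycling, was at 37.4 and 35.6 CPM in the KIF5C samples, against 25.9 and 27.2 CPM in the IgG samples. Its groups did not overlap, but its log2 fold difference of 0.46 (SE 0.21, adjusted p = 0.223) did not pass. Rab11a, the widely expressed form of the same Rab, was at 58.4 and 76.8 CPM in the KIF5C samples, against 82.3 and 97.3 CPM in the IgG samples. It lay on the other side, at -0.41 (SE 0.22, adjusted p = 0.306). With GC and length offsets both were positive, Rab11a at 0.06 and Rab11b at 0.31. Rab35, which acts in fast recycling and at the plasma membrane, was at 63.8 and 63.4 CPM in the KIF5C samples, against 53.2 and 51.0 CPM in the IgG samples, without passing (adjusted p = 0.446). Rab14 and Rab15 had negative values of -0.33 and -0.15. As a whole the group held 14.3% and 14.8% of Rab counts in the KIF5C samples, against 14.5% and 15% in the IgG samples.

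Of the 7 early endosomal Rabs none passed in either direction, with a median log2 fold difference of -0.16. Rab21, which acts in the uptake and return of integrins, was at 34.0 and 36.1 CPM in the KIF5C samples, against 16.4 and 29.9 CPM in the IgG samples. Its groups did not overlap, but IgG sample 1 lay far below IgG sample 2, and the log2 fold change was 0.62 (SE 0.26, adjusted p = 0.180). Leaving out IgG sample 1 gave 0.23, and leaving out IgG sample 2 gave 1.11. Rab31 ran the other way, at 95.9 and 124 CPM in the KIF5C samples, against 159 and 181 CPM in the IgG samples, a log2 fold difference of -0.63 (SE 0.23, adjusted p = 0.129). Both KIF5C values were below both IgG values. The products of the Rab5 genes drive fusion of early endosomes. Rab5a was at 43.0 and 37.1 CPM in the KIF5C samples, against 45.7 and 54.1 CPM in the IgG samples (log2 fold change -0.31, SE 0.21, adjusted p = 0.418), with both KIF5C values below both IgG values. Without IgG replicate 2 it was at -0.18. Rab5b was at -0.14 and Rab5c at -0.16 (SE 0.23, adjusted p = 0.717), and for both the libraries of the 2 antibodies overlapped.

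The 5 Rabs of late endosomes, lysosomes and autophagy included none that passed, with a median of -0.49. Rab7, the Rab of late endosomes and lysosomes, was at 55.1 and 45.0 CPM in the KIF5C samples, against 33.5 and 46.8 CPM in the IgG samples. These overlapped, and the log2 fold change was 0.32 (SE 0.23, adjusted p = 0.433). Leaving out IgG sample 1 gave 0.10, leaving out IgG sample 2 gave 0.59 and leaving out KIF5C sample 1 gave 0.18. Rab9 and Rab9b act in transport from late endosomes to the Golgi, and both had KIF5C values below their IgG values. Rab9b was at 32.8 and 31.2 CPM in the KIF5C samples, against 37.6 and 53.5 CPM in the IgG samples, a log2 fold difference of -0.50 (SE 0.23, adjusted p = 0.210). Without IgG replicate 1 it was at -0.74, and without IgG replicate 2 it was at -0.22. Rab9 was at 11.1 and 10.9 CPM in the KIF5C samples, against 13.0 and 18.2 CPM in the IgG samples, a log2 fold difference of -0.49 (SE 0.24, adjusted p = 0.261). It was -0.23 without IgG replicate 2, and with GC and length offsets Rab9 was at -0.16 and Rab9b at -0.24. Rab7b was lowest of all Rab genes at -0.92, but rested on levels of 0.929 and 1.40 CPM in the KIF5C samples, against 1.79 and 2.67 CPM in the IgG samples (SE 0.47, adjusted p = 0.271). Rab24, linked to autophagy, was at 0.11 and shares 54.4% of its 31-base words with other genes, chiefly Prelid1 on the opposite strand.

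Of 16 Rabs of the endoplasmic reticulum and Golgi, 14 were tested, none passed, and 11 of the 14 values were negative (median -0.17). Rab2a was at 119 and 116 CPM in the KIF5C samples, against 69.6 and 98.6 CPM in the IgG samples. Its log2 fold difference of 0.49 (SE 0.23, adjusted p = 0.233) did not pass, and leaving out IgG sample 1 gave 0.26 while leaving out IgG sample 2 gave 0.77. With GC and length offsets, which correct for the dependence on both, it was 0.78 and passed (adjusted p = 0.0315), in a fit that called 3.5% of all genes. Rab6b, the brain-enriched Rab6, was at 496 and 420 CPM in the KIF5C samples, against 379 and 345 CPM in the IgG samples (log2 fold change 0.34, SE 0.26, adjusted p = 0.464). Rab6a was at 288 and 290 CPM in the KIF5C samples, against 340 and 385 CPM in the IgG samples (log2 fold change -0.33, SE 0.25, adjusted p = 0.462). Neither Rab6 gene had overlapping libraries, and they lay on opposite sides. With GC and length offsets the values drew closer, to 0.14 for Rab6b and -0.17 for Rab6a, and Rab6b was at 0.22 without KIF5C replicate 1. Rab30, a Golgi Rab, had the smallest p of the genes on the lower side, at 18.8 and 20.9 CPM in the KIF5C samples, against 30.8 and 31.8 CPM in the IgG samples. Its log2 fold change was -0.66 (SE 0.22, adjusted p = 0.0947), and -0.41 (adjusted p = 0.272) with GC and length offsets. Rab1a was at 61.1 and 55.0 CPM in the KIF5C samples, against 61.6 and 71.2 CPM in the IgG samples (log2 fold change -0.19, SE 0.21, adjusted p = 0.638), and at 0.12 with GC and length offsets. Rab1b was at -0.30 (SE 0.23, adjusted p = 0.471), and between -0.12 and -0.48 with either KIF5C sample left out.

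The 8 Rabs of synaptic vesicles and regulated secretion gave no call, with a median of -0.19. Rab3a was at 315 and 315 CPM in the KIF5C samples, against 315 and 255 CPM in the IgG samples. Its log2 fold difference of 0.14 (SE 0.25, adjusted p = 0.777) was smaller than the gap between the IgG samples. Leaving out IgG sample 1 gave 0.31, and leaving out IgG sample 2 gave 0.010. Rab3c, a second neuronal Rab3, was at 251 and 264 CPM in the KIF5C samples, against 297 and 404 CPM in the IgG samples. Its value of -0.44 did not pass either (SE 0.25, adjusted p = 0.328). Rab27a and Rab27b, which act in the release of secretory granules, lay on opposite sides. Rab27a was at 6.45 and 7.46 CPM in the KIF5C samples, against 3.39 and 5.60 CPM in the IgG samples, a log2 fold difference of 0.67 (SE 0.31, adjusted p = 0.227) that became 0.31 with IgG sample 1 left out and 1.04 with IgG sample 2 left out. Rab27b was at 22.7 and 19.1 CPM in the KIF5C samples, against 26.9 and 31 CPM in the IgG samples, a log2 fold difference of -0.46 (SE 0.22, adjusted p = 0.238), and -0.19 with GC and length offsets. The synaptic and secretory group held 20.4% and 20.5% of Rab counts in the KIF5C samples, against 21.3% and 20.8% in the IgG samples.

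None of the 7 Rabs of surface delivery and the cilium passed (median -0.24). Rab13, known from epithelial junctions, had the highest log2 fold difference of all Rab genes, 1.45, on 24 and 17 counts in the KIF5C samples, against 8 and 3 counts in the IgG samples. Its SE was 0.60 and its adjusted p 0.175, so a difference was not detectable at this depth. Rab23, a negative regulator of Hedgehog signalling, was at 16.1 and 15 CPM in the KIF5C samples, against 11.8 and 12.6 CPM in the IgG samples (log2 fold change 0.35, SE 0.23, adjusted p = 0.385). Rab8a, which acts in delivery to the plasma membrane and the cilium, was at 30.6 and 40 CPM in the KIF5C samples, against 46.3 and 43.8 CPM in the IgG samples (log2 fold change -0.35, SE 0.22, adjusted p = 0.370). Leaving out KIF5C sample 1 gave -0.16, and leaving out KIF5C sample 2 gave -0.54. Rab10, which acts in the same step, was level at 99.5 and 90.4 CPM in the KIF5C samples, against 83.9 and 90.4 CPM in the IgG samples. Rab29, Rab32 and Rab38, Rabs of lysosome-related organelles, were scarce and did not pass. Rab40c, which joins a ubiquitin ligase through a SOCS box, was at 27.0 and 35.1 CPM in the KIF5C samples, against 42.4 and 44.6 CPM in the IgG samples (log2 fold change -0.49, SE 0.22, adjusted p = 0.210). It was at -0.30 without KIF5C replicate 1. Its relative Rab40b was at 0.12.

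The precision differed with abundance. For the 43 tested Rab genes at a mean log2 CPM of 3 or more, the SE lay between 0.21 and 0.30, and the 11 scarcer ones had larger errors, up to 0.70 for Rab20. Rab17, Rab19, Rab25, Rab43 and Rab44 fell under the filter on low counts. Rab44 had 0 counts in every library, which allows up to 3 counts, or 0.155 and 0.233 CPM in the KIF5C samples and 0.192 and 0.382 CPM in the IgG samples. Rab43 shares 74.8% of its 31-base words with a locus named Gm45140 and others, so its count is uncertain.

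Because several Rab pairs lay on opposite sides, the count of a gene was divided by that of the gene with the same number within each library, which removes the scaling between libraries. Of 21 such pairs, 10 had ratios that did not overlap between antibodies, 47.6%, against 51.2% of all 1431 pairs of tested Rab genes. Same-numbered genes were thus not set apart from other pairs of Rabs. With 2 libraries against 2 an exact two-sided permutation test over samples cannot give a p below 0.333, and each of the 10 reached 0.333. The counts of Rab11a over Rab11b were 1.56 and 2.16 in the KIF5C samples, against 3.17 and 3.57 in the IgG samples. For Rab6a over Rab6b they were 0.580 and 0.690 in the KIF5C samples, against 0.897 and 1.12 in the IgG samples. For Rab2a over Rab2b they were 4.21 and 3.60 in the KIF5C samples, against 1.81 and 2.75 in the IgG samples. Rab9 over Rab9b was flat, at 0.341 and 0.350 in the KIF5C samples, against 0.346 and 0.340 in the IgG samples.

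**Figure D4:**
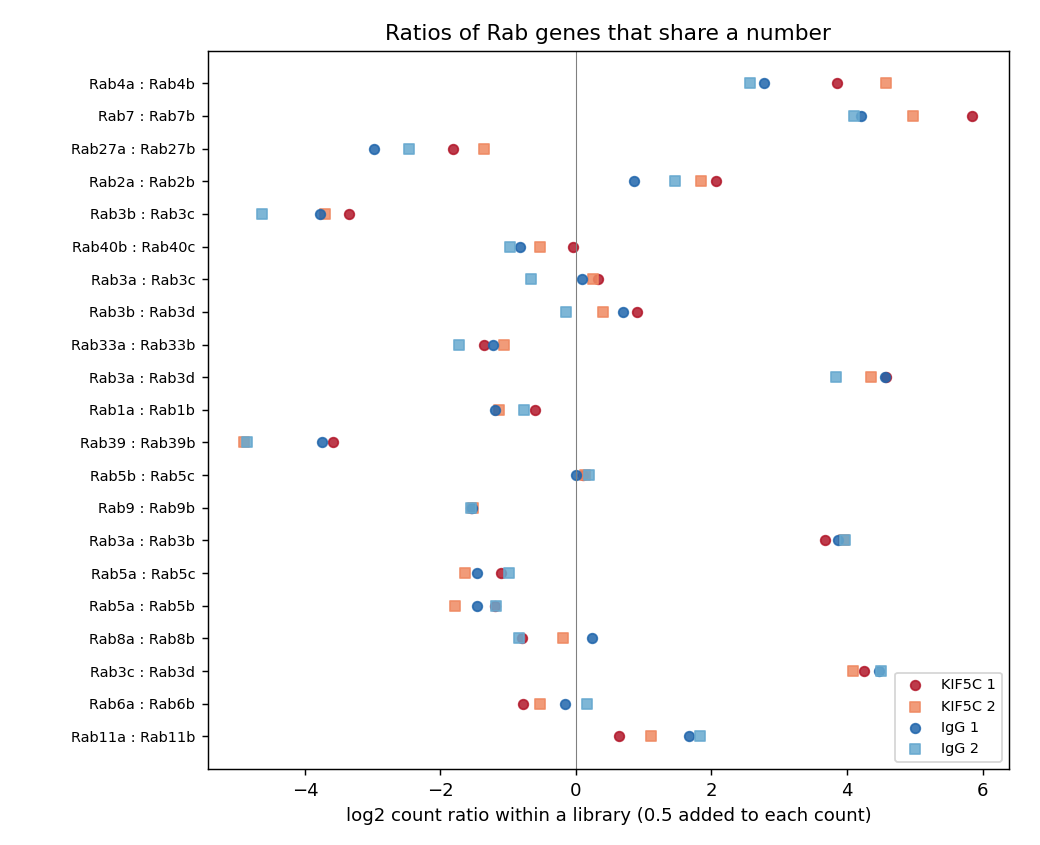
Log2 ratio of counts within each library for the 21 pairs of tested Rab genes that share a number, with 1 point per library (red and orange for the KIF5C samples, blue and light blue for the IgG samples). The ratios of Rab4a to Rab4b and Rab2a to Rab2b are higher in both KIF5C samples, those of Rab11a to Rab11b and Rab6a to Rab6b are lower, and those of Rab9 to Rab9b fall together.

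Part of these ratios rests on genes whose reads are hard to assign. Rab2b shares 59.6% of its 31-base words with other genes, mainly Gm43766 on the opposite strand, and Rab6a shares 21.3%, mainly with Mrpl48 on the opposite strand. Rab11b shares 15.4% and Rab2a 10.7%, mainly with processed copies or predicted genes, while Rab6b shares 0.239% and Rab11a 2.49%. Whether the counting used strand is not given in the sources used here, so reads of such overlapping partners cannot be told apart. The P-loop stretches of the 3 pairs are shown because they show how far the mRNAs of each pair differ over it. They are coding bases 7 to 96 of the Rab2 genes, 28 to 117 of the Rab6 genes and 22 to 111 of the Rab11 genes, with capitals at the bases that differ within a pair, namely 15 of 90 for Rab2, 15 for Rab6 and 21 for Rab11.
Rab2a: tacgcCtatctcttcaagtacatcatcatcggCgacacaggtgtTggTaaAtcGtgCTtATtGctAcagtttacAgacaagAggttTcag
Rab2b: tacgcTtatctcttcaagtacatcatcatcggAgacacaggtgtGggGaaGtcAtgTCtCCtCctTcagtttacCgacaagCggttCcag
Rab6b: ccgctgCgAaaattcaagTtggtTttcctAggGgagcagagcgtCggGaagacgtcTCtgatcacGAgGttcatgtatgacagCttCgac
Rab6a: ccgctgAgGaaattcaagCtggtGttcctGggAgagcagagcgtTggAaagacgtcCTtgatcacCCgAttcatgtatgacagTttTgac
Rab11b: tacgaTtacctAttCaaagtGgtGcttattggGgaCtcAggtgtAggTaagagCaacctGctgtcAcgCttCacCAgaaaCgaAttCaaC
Rab11a: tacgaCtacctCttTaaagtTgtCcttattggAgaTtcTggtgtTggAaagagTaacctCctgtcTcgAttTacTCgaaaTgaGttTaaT

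The longest coding sequence of each Rab gene had a median of 645 bases, with a range from 582 to 2919 bases. The longest transcripts of the tested Rab genes had a median length of 3064.5 bases and a median GC content of 48.8%, against 3453 bases and 49.7% for all genes tested. Over 13943 genes the log2 fold change correlated with GC content (Spearman 0.33) and with log2 length (Spearman 0.20). Over the 54 Rab genes the same correlations were 0.11 for GC content and -0.07 for log2 length, and, over the 51 with an annotated length, -0.09 for the log2 length of the 3′ untranslated region. These are correlations across genes measured in the same 4 libraries, given as a description. Members of a pair could differ in GC content, with Rab11a at 39.5% and Rab11b at 48.1%. The count ratios of such pairs were not corrected for GC content or length.

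**Figure D5:**
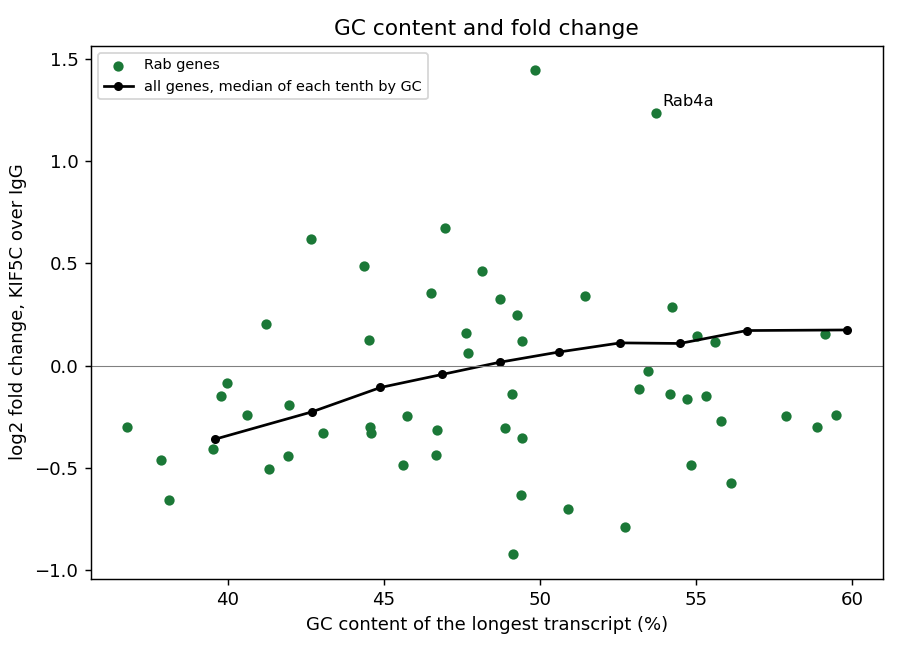
Log2 fold change, KIF5C over IgG, against GC content of the longest transcript for the 54 tested Rab genes (green) with the median of all genes in each bin of GC content (black line). The black line rises with GC content, and the Rab genes scatter on both sides of it, with Rab4a at 1.23 and a GC content of 53.7%.

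The genes that load, switch off, extract and read Rabs were then set beside the family. Of 31 tested Rab GEF genes none passed, with a median log2 fold difference of 0.21. The smallest p was that of Madd, which encodes the exchange factor of Rab3, at 178 and 133 CPM in the KIF5C samples, against 97.2 and 74.1 CPM in the IgG samples. Its value of 0.86 (SE 0.24) missed the threshold with an adjusted p of 0.0522, and it passed with DESeq2 (adjusted p = 0.0151). It was at 0.64 (adjusted p = 0.483) without KIF5C replicate 1 and 1.07 (adjusted p = 0.0143) without IgG replicate 1. None of 14 subunits of the TRAPP complexes, which activate Rab1, passed (median -0.04), and the smallest p was that of Trappc2 at -0.82 (SE 0.25, adjusted p = 0.0679).

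Among 37 tested Rab GAP genes, Tbc1d25 was higher and 36 did not pass (median 0.09), where 3.33% of all genes tested were called higher. Tbc1d25, which encodes a GAP with a TBC domain linked to autophagy, was at 9.29 and 9.79 CPM in the KIF5C samples, against 3.39 and 3.43 CPM in the IgG samples, a log2 fold difference of 1.48 (SE 0.28, adjusted p = 0.0110). It passed in each fit with 1 library left out, with adjusted p-values from 0.0100 to 0.0371. Of 46 tested effector genes, 2 were higher and 44 did not pass (median 0.04), against the same 3.33% of all genes tested. Mical3, an actin-oxidising enzyme that binds Rab8, was at 23.8 and 20.5 CPM in the KIF5C samples, against 6.78 and 9.79 CPM in the IgG samples, a log2 fold difference of 1.45 (SE 0.25, adjusted p = 0.00677). It also passed in each fit with 1 library left out. Micall1, which acts on recycling endosomes, was at 26.9 and 22.5 CPM in the KIF5C samples, against 13.6 and 13.5 CPM in the IgG samples. Its log2 fold difference of 0.87 (SE 0.23, adjusted p = 0.0400) passed without IgG replicate 1 and missed the threshold in each other fit with 1 library left out (adjusted p from 0.0835 to 0.389) and with GC and length offsets (0.49, adjusted p = 0.190).

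Of 11 genes for extraction, prenylation and phosphorylation of Rabs none passed (median 0.02). The smallest p belonged to Chm, which encodes the Rab escort protein needed for prenylation, at -0.78 (SE 0.24, adjusted p = 0.0684). Without IgG replicate 1 Chm was at -0.94. Of 5 tested Rab-like GTPase genes outside the family rule none passed (median -0.26), and Ift22 had the smallest p (-0.38, SE 0.22, adjusted p = 0.324). In the 144 tested genes of these lists together 3 were called, 2.08%, against 4.07% of all genes tested.

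The Arf family holds small GTPases of vesicle budding. Of 26 tested Arf family genes, Arl6, which acts in traffic to the cilium, was lower and 25 did not pass, with a median of -0.20, where 0.745% of all genes tested were called lower. Arl6 was at 13.9 and 15.5 CPM in the KIF5C samples, against 25.3 and 27.9 CPM in the IgG samples, a log2 fold difference of -0.85 (SE 0.22, adjusted p = 0.0403). It passed without IgG replicate 1 and missed the threshold in each other fit with 1 library left out (adjusted p from 0.0966 to 0.403) and with GC and length offsets (-0.35, adjusted p = 0.325). Whether the Rab and Arf families differ was not tested.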

How the data were processed

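RNA from KIF5C and IgG precipitates of mouse hippocampus was compared as 2 libraries against 2. Per the file headers and the labels, the authors deposited whole-number counts per gene, not normalized, and a table of their own comparison. That table holds, per the file headers, log2 fold changes with standard errors, p-values and adjusted p-values, a linear fold (ratio), a test statistic (score) and mean normalized counts (signal) made by the authors, of which the last 3 were not used. Salmon, DESeq and GRCm38 are named in the submitters' processing notes. No source used here gives versions, annotation or strandedness.

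The counts were tested over the whole table with edgeR 4.0.16 in R 4.3.3 (quasi-likelihood F test, TMM, filterByExpr with a minimum count of 10 and total of 15, group as the only term). The SE is the log2 fold change divided by the square root of F. CPM values use the TMM-scaled library sizes. Lengths, GC content (97.1% of genes tested), coordinates and sequences come from GENCODE mouse release 21. The ratio of 2 Rab counts has 0.5 added to each. Alternatives were DESeq2 1.42.0, limma-voom (limma 3.58.1), other scalings and filters, a replicate block, offsets from splines of GC content and log length, and leaving out each library. With a library left out, the lone library is assumed to vary like the other group. The scripts were tested on simulated data.

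The members and lists were chosen with earlier results of these data known. The genes given with full statistics were the Rab genes past the threshold, the 6 highest and 6 lowest at a mean log2 CPM of at least 3, the 8 highest per kb, and Rab1a, Rab3a, Rab5a, Rab7, Rab8a, Rab11a and Rab27a. From each other list they were the genes past the threshold, or the 1 with the smallest p. Other Rab genes were named after their values were seen. 1 comparison list is not reported here.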

Additional observations from a re-analysis of the deposited data

How the results depend on the processing

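Rab4a stayed higher in every setting and missed the threshold with library totals (1.36, adjusted p = 1.00) and without KIF5C replicate 2 (1.11), with 1.11 to 1.38 over the fits that left out 1 library. Of the Rab genes, 2 were called higher after GC and length correction, in a fit that called 3.5% of all genes. With library totals 0 were called higher, against 0.0348% of all genes called. At an adjusted p of 0.1, 1 Rab gene was called lower. The share of all genes called at that threshold is not given here, so this count has no background beside it. Leaving out 1 library gave a Rab median of -0.22 to -0.11. The Rab median was -0.024 with library totals.

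The shared replicate number is not stated to mark a litter, batch or day, and 2 pairs do not settle it, so pairing was not assumed. Deviations of same-numbered libraries correlated at 0.14, and the libraries numbered 2 shared the higher mt-Rnr2 share. With the number as a block, 2 Rab genes were called higher and 2 lower (Rab4a, Rab21, Rab30, Rab31), against 11.7% of all genes. The block with GC and length offsets called 3 higher and 3 lower, against 11.3% of all genes.

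Of the regulator, effector and Rab-like genes, against 3 higher and 0 lower, 6 were higher with DESeq2, 0 with library totals, 9 higher and 3 lower without the low-count filter, 11 and 5 with the block, 6 and 7 with the block and GC and length offsets, and 2 to 14 higher and 0 to 6 lower with 1 library left out. Of all genes, 5.42% were called with DESeq2 and 5.24% without the low-count filter. The block called 11.7%, and 11.3% with GC and length offsets. The fits with 1 library left out called 0.975% to 10.5% of all genes. The 14 higher and 6 lower came from the fit without IgG replicate 1, which called the 10.5%. The median of these regulator, effector and Rab-like genes was -0.032 after GC and length correction and -0.028 with the block added. It was 0.19 with library totals and 0.027 to 0.11 with 1 library left out. Of the Arf genes, against 0 higher and 1 lower, 1 was higher with DESeq2, 1 without the filter and 1 with the block. With the block and GC and length offsets 3 were higher, and the shares of all genes called in these fits are those given above for the regulators. There were 0 lower with GC and length offsets and with library totals. Their median was -0.033 with library totals and -0.24 to -0.12 with 1 library left out. The sign turned in 7 of 54 Rab genes with GC and length offsets, each to positive, in 6 with library totals and in 2 to 6 with 1 library left out. Among those given with full statistics it turned for Rab1a after GC and length correction (0.12, and 0.12 with the block), for Rab11a (0.060, and 0.047 with the block) and for Rab5c without KIF5C replicate 1 (0.00022, against -0.32 without KIF5C replicate 2). The cause of these changes was not tested. Of the 8 Rab genes with the highest level per kb, 5 were also among the 8 by median transcript length. DESeq2 gave no adjusted p for some scarce genes such as Rab13. Over all genes tested the calls numbered 585, against 1163 without the low-count filter, 5 with library totals, 1679 with the block, 1617 with the block and GC and length offsets, and 143 to 1564 with 1 library left out.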
